A study of Drosophila melanogaster with 4 samples.

Results

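The gene cnc (cap'n'collar) of Drosophila melanogaster was described through its transcript models in testes. The gene lies on chromosome arm 3R from 23185580 to 23226711 (Release 6 coordinates, minus strand, 41132 bp), and the RefSeq table used here lists 16 transcripts for it. Members were the minus-strand transcripts that overlap this span by at least part of an exon. The rule found 32 isoforms of the 40180 in the catalogue, all of them in 1 of its 9100 loci. Of these, 28 (87.5%) ended their coding sequence (CDS) at the same position, 23187444, and are called the cnc isoforms below. The other 4 lay wholly inside a cnc intron and covered the nested gene fzo (fuzzy onions), which is transcribed from the same strand. The gene was chosen by its number of isoforms with internal first exons in earlier results of these data, so the counts of first exons and CDS versions describe the gene and carry no test.

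The protein Cnc is a basic leucine zipper transcription factor, the fly counterpart of vertebrate Nrf2. It pairs with the small Maf protein encoded by maf-S and switches on genes of the response to oxidative and chemical stress. The longest form, CncC, carries an amino-terminal region through which Keap1 holds it back, whereas shorter forms such as CncB lack that region and are known for head patterning in the embryo, where cnc acts with the homeotic gene Dfd. The DNA-binding and zipper part lies towards the carboxyl end, which all of these forms share.

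The catalogue comes from PacBio Iso-Seq, which reads a polyadenylated transcript as a full-length cDNA. Control testes carried the bamGAL4 driver, active in spermatogonia (2 samples). Knockdown testes carried this driver together with KmgRNAi, a construct against kmg, a gene for a zinc-finger repressor of spermatocytes (2 samples). Each sample pooled 150 pairs of testes from males 0 to 2 days old, taken from crosses kept for 3 days at 25 °C whose progeny were then moved to 29 °C. The driver and the shift to 29 °C were common to both groups. The authors merged all 4 samples into 1 set of structures, in which 0 lines name a sample or condition and no line gives a read number. Depth and replicate spread are therefore unknown, and control and knockdown could not be compared for cnc. Whole testes hold germ cells and somatic cells, and the catalogue does not say in which of them an isoform was made.

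The cnc isoforms began in 11 separate regions spread over the whole gene (starts joined when no more than 200 bp apart). Only 1 of 28 began at the annotated 5' end, at 23226708, which is 3 bp from it. That end is the outer limit of the gene span. The starts of the 16 RefSeq transcripts were not compared singly, so the other starts may be annotated too. A group of 5 isoforms began 4.7 kb inside the gene, at 23221992, 23221988 and 23221961. Farther along, 1 isoform each began at 14.7 kb (23211983), 18.9 kb (23207853) and 22.7 kb (23204054), and 2 began at 27.2 kb (23199535). The remaining 17 isoforms began in the last part of the gene. There, 1 began at 33.4 kb (23193332), 5 at 34.1 kb (23192640 and 23192632), 3 at 35.6 kb (23191154), 6 at 37.4 kb (23189321 to 23189209) and 2 at 37.9 kb (23188854 and 23188682). Exact agreement of starts differed between these regions. The 3 isoforms at 35.6 kb shared 1 start position and 4 of the 5 at 34.1 kb began at 23192640, whereas the 6 isoforms at 37.4 kb had 6 different start positions. Over the gene, 5 start positions were held by 2 or more isoforms (13 isoforms) and 15 by 1 isoform each.

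**Figure D1:**
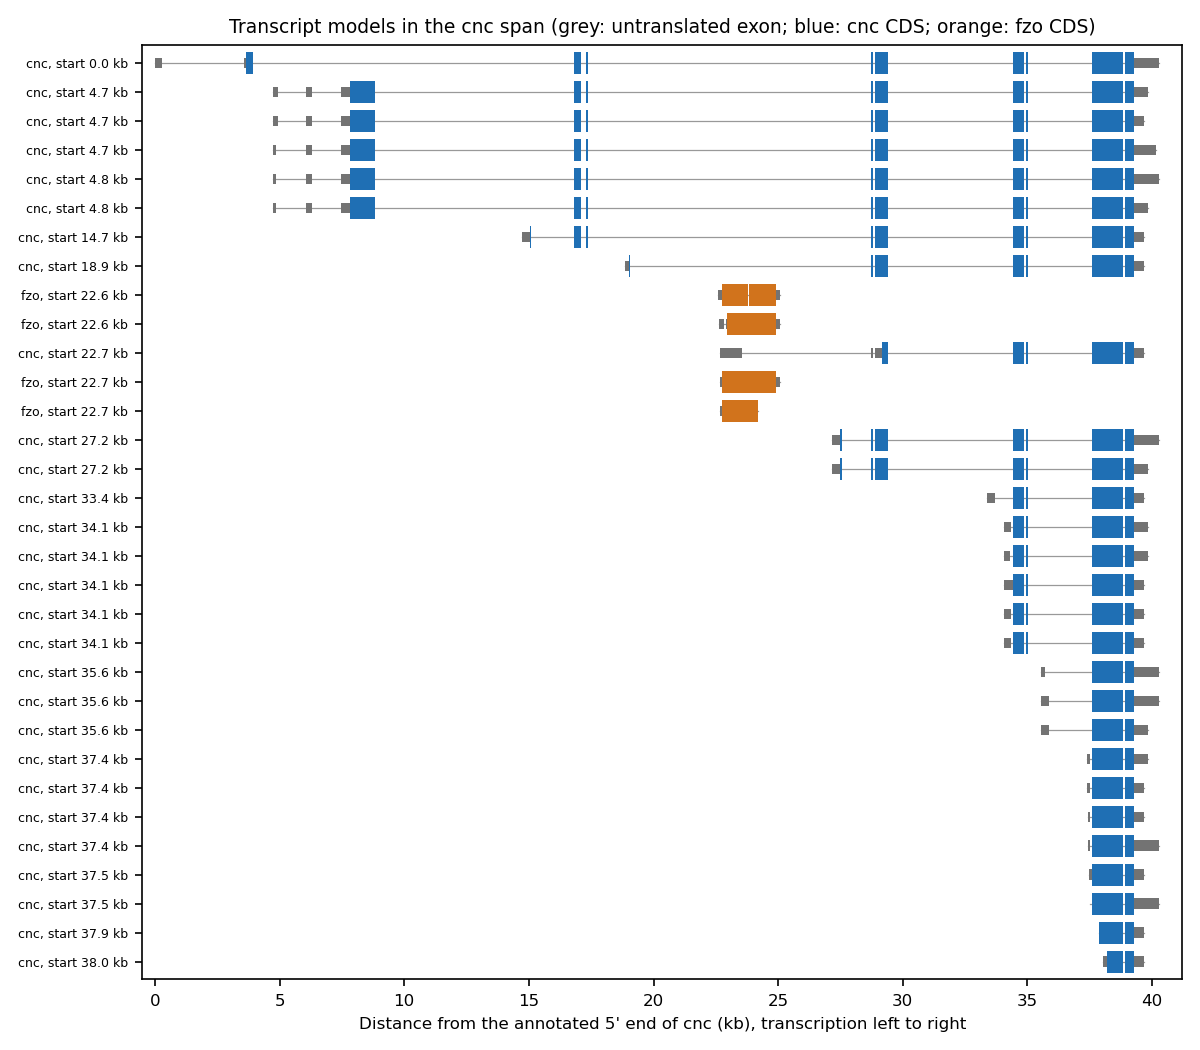
Transcript models in the cnc span, 1 line per isoform, drawn to scale by distance in kb from the annotated 5' end, with thin grey blocks for untranslated exons, tall blocks for CDS (blue for cnc, orange for fzo) and lines for introns. The 28 cnc isoforms begin in 11 regions and all reach the same last 2 coding blocks, while the 4 fzo isoforms lie inside an intron.

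First exons differed far more than the rest of the transcript. All 28 cnc isoforms were spliced, with 2 to 11 exons (median 5), and they used 19 different donors of the first intron but only 8 acceptors. A donor is the last base of an exon before an intron, and an acceptor is the first base of the next exon. The acceptor at 23189129 received 8 isoforms from 4 donors, the one at 23192281 received 5 isoforms from 5 donors, and the one at 23197976 received 4 isoforms from 3 donors. Of the 19 donors, 12 were used by 1 isoform each. By contrast, every cnc isoform used the acceptor of the last exon at 23187803. An internal first exon was found in 17 isoforms. It lay wholly in an intron of an isoform that began more than 100 bp farther 5'. It also overlapped no exon of such isoforms and was joined to an acceptor that they used too.

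Downstream of the first intron the splicing was nearly constant. The cnc isoforms held 27 distinct introns, of which 19 occurred as a first intron and 10 as a later one, with 2 in both positions. Of the 10 later introns, 8 were removed in every isoform that ran across them. For 1 of these 8, of 12913 bp, only 1 isoform did so, which leaves nothing to compare. The other 7 were held by at least 7 isoforms each. These included the intron of 11365 bp between 23209342 and 23197976 (7 isoforms), the intron of 5005 bp between 23197287 and 23192281 (11 isoforms) and the intron of 2566 bp between 23191696 and 23189129 (17 isoforms). The last intron, of 73 bp between 23187877 and 23187803, was removed in all 28. The chain of introns after the first was a 3' part of the longest chain, which has 10 introns, in 27 of 28 isoforms. Of these 27, 3 had only 2 exons and so no later intron to compare. Another 8, joined to the acceptor at 23189129, had the last intron as their only later one, and all 28 isoforms held that intron. The longest chain itself came from the 5 isoforms from 4.7 kb, with 11 exons each, which are counted among the 27. The exception among the 28 was the isoform from the annotated 5' end. It crossed from 23222797 to 23209883 through an intron of 12913 bp, and so lacked 2 exons, of 227 and 1371 bp, that the 5 isoforms from 4.7 kb contain. These were the only internal exons of cnc that lay in an intron of another isoform, and no isoform skipped either of them while keeping the splice sites on both sides.

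The isoforms from 4.7 kb carried the longest CDS, of 4125 bp. In all 5 of them it began at 23218880, in the third exon. Their first exons ended at 3 donors, 23221846, 23221842 and 23221762, all joined to the acceptor at 23220643, so that these isoforms varied only in untranslated sequence. With 11 exons and a spliced length of 5369 to 5844 bp they were the longest cnc transcripts. The isoform from the annotated 5' end had a shorter CDS of 3402 bp (82.5% of the longest), which began at 23223075 in its second exon. The outermost annotated start thus did not give the longest predicted protein in this catalogue.

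In total the 28 cnc isoforms held 10 CDS versions that differed at the start and shared the stop. Their lengths ran from 4125 bp down to 1020 bp, and all 28 lengths were multiples of 3. The last 1020 coding bases (24.7% of the longest CDS) were contained in all 28 isoforms. From the acceptor at 23191783 to the stop, 1701 coding bases were the same in 17 isoforms, and from the acceptor at 23209883, 3123 bases were the same in 7. The versions thus shared 3' coding sequence to different extents and differed in where, and in which exon, the CDS began. A CDS longer than 50% of the longest was held by 17 isoforms, and a shorter one by 11.

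**Figure D2:**
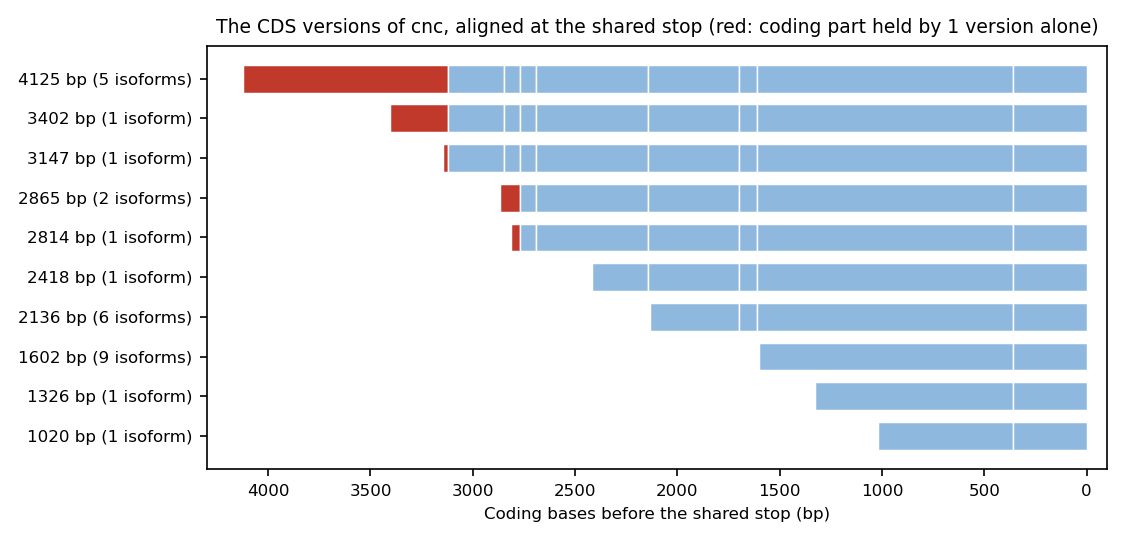
The 10 CDS versions of cnc aligned at the shared stop, with coding bases before the stop (bp) on the horizontal axis, white lines at exon boundaries and the number of isoforms beside each length. Red marks a first coding part that no other version holds. It is present in the 5 longest versions, from 1002 bp in the CDS of 4125 bp down to 24 bp in that of 3147 bp, and the 5 shorter versions begin inside coding bases of the others.

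The 10 isoforms with the 5 longest versions each began their CDS in coding sequence of their own. The first coding part measured 1002 bp in the CDS of 4125 bp, 279 bp in that of 3402 bp and 24 bp in that of 3147 bp (start 23211652), and each was joined to the acceptor at 23209883. All 3 lengths are multiples of 3, so the alternatives at this acceptor read on in 1 frame. In the CDS of 2865 bp (start 23199230, 2 isoforms) the first part measured 97 bp, and in that of 2814 bp (start 23207701, 1 isoform) it measured 46 bp. Both were joined to the acceptor at 23197976. Here the upstream coding bases left a remainder of 1 after division by 3 in both, as did the 1357, 634 and 379 coding bases that the 3 longer forms place before the same acceptor. All 5 alternative beginnings therefore entered the shared exon in the same reading frame. This follows from the CDS as assigned and is not a separate result. The isoforms were grouped by their shared stop, had the same coding bases from each acceptor onwards, and had CDS lengths that are multiples of 3.

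The other 5 versions, in 18 isoforms, began inside sequence that longer isoforms also translate. A pair of these starts lay directly behind an acceptor. The CDS of 2136 bp (51.8% of the longest) began at 23192275, 6 bases after the acceptor at 23192281, and was found in 6 isoforms. The CDS of 1602 bp (38.8%) began at 23189118, 11 bases after the acceptor at 23189129, and was found in 9 isoforms, more than any other version. These 15 isoforms (53.6%) came from 4 start regions and 11 first donors. Within either version the CDS was the same, so different starts and first donors changed only untranslated sequence. At 34.1 kb, for example, 4 isoforms spliced from 23192401, 23192386, 23192381 or 23192357 to 23192281, and the isoform without an intron there, whose first exon of 800 bp ran on to 23191841, kept the CDS of 2136 bp as well. At 37.4 kb the first exon was as short as 22 bp (23189209 to 23189188), and the isoform that began at 23189228 read straight through into the shared exon. All 6 isoforms there had the CDS of 1602 bp.

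The shortest versions came from the innermost starts. The isoform from 23188854 had a CDS of 1326 bp (32.1%) that began 12 bases after the transcript start, and the isoform from 23188682 had a CDS of 1020 bp (24.7%) that began 146 bases after it. Both isoforms began 3' of the CDS start at 23189118, inside an exon that the longer isoforms translate, and cannot contain that start. Each was the sole isoform with its version. Whether such starts are transcript ends in the cell or cDNAs that stopped short was not tested.

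A start of particular structure lay at 23204054. This base was also the start of 2 of the 4 fzo isoforms, 20 bp upstream of the annotated 5' end of fzo (3R, 23201644 to 23204034), a gene for a mitofusin-type GTPase that joins mitochondria in spermatids. The fzo isoform that runs from this start without an intron carried a CDS of 2157 bp, from 23203961 to 23201805. The cnc isoform from the same base used a donor inside that CDS, at 23203173, and crossed an intron of 5196 bp to the cnc acceptor at 23197976. Its first exon of 882 bp thus contained the fzo CDS start and 789 bp (36.6%) of the fzo CDS. The CDS assigned to this isoform was nevertheless one of cnc, of 2418 bp (58.6% of the longest), beginning at 23197562, in the shared exon that starts at 23197835. It was preceded by 1232 bp of sequence counted as 5' untranslated, the most of any cnc isoform. No other isoform held the CDS of 2418 bp, and 1 isoform alone joined the 2 genes.

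The other fzo isoforms varied inside that gene. In 1 of them an intron of 54 bp, a multiple of 3, was removed between 23202917 and 23202862, which left a CDS of 2103 bp with the same start and stop. In another, an intron of 86 bp between 23203886 and 23203799, which is not a multiple of 3, was removed behind the usual CDS start, and the CDS assigned to that isoform, of 1968 bp, began at 23203772. The last fzo isoform ended at 23202539, next to the end of its own CDS of 1422 bp at 23202540, and thus short of the stop that the other 3 share.

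**Figure D3:**
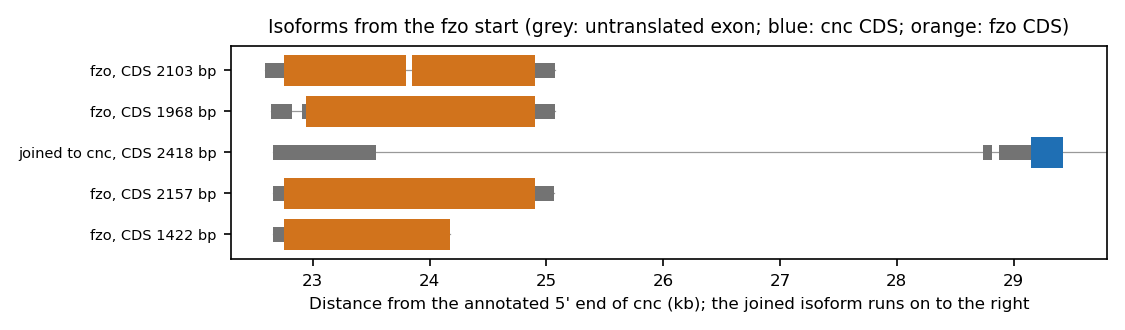
The 4 fzo isoforms and the isoform that joins the start of fzo to cnc, by distance in kb from the annotated 5' end of cnc, with thin grey blocks for untranslated exons and tall blocks for CDS (orange for fzo, blue for cnc). The first exon of the joined isoform (882 bp) covers the beginning of the fzo CDS, and its own CDS begins past 29 kb in a cnc exon.

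At the 3' side the cnc isoforms ended in 4 groups (ends joined when no more than 50 bp apart), all in the last exon. The shortest 3' untranslated region, of 417 or 418 bp, ended at 23187026 or 23187027 and was found in 13 isoforms (46.4%). A region of 562 or 563 bp (ends 23186881 and 23186882) was found in 7 isoforms, and one of 1007 bp (end 23186437) in 7 more. The end at 23186563, with 881 bp, was seen in 1 isoform. No cnc isoform reached the annotated 3' end of the gene span, the nearest ending 857 bp short of it. The ends of single RefSeq transcripts were not compared. Within each group the ends agreed to within 1 bp.

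The 3' end was not tied to 1 start. Of the 6 start regions with 2 or more isoforms, 5 had 2 or more ends, and the 5 isoforms from 4.7 kb used all 4. Both the longest CDS, from 4.7 kb, and the short CDS of 1602 bp, from 35.6 and 37.4 kb, were seen with the ends that give 417, 562 or 563, and 1007 bp. The 2 isoforms from 27.2 kb shared every exon but the last, and ended at 23186881 and 23186437. Of the 5 start regions with 1 isoform, 4 had the innermost 3' end, the exception being the annotated 5' end, whose isoform ended at 23186437. Of 44 possible combinations of start region and 3' end, 19 were listed. The 28 isoforms could not have filled all 44, since 5 of the regions had 1 isoform and so only 1 end each. These are counts of structures and not of molecules, so they do not show which end was used more often. With starts and ends set aside, the 28 isoforms reduced to 19 chains of introns, of which 7 were held by 2 or more isoforms (16 isoforms).

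**Figure D4:**
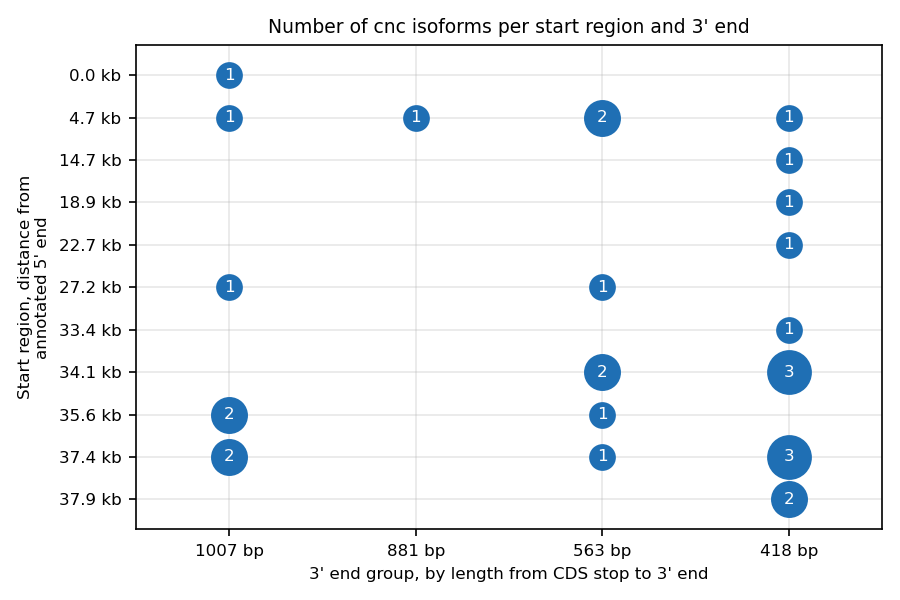
Number of cnc isoforms for each start region (vertical axis, distance in kb from the annotated 5' end) and each 3' end group (horizontal axis, length in bp from the CDS stop to the transcript end, the longest of the group). The region at 4.7 kb is combined with all 4 ends, and the shortest 3' region is combined with 8 of the 11 start regions.

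Set against the whole catalogue, the locus with the 32 isoforms ranked 35 among 9100 loci by isoform number (median 3, highest 68). It had 10 CDS starts on its commonest stop, which ranked 2 among 7763 loci with a CDS (median 1, highest 11). Loci with more isoforms can hold more CDS starts, so the comparison was repeated among the 190 loci with at least 20 isoforms. There the 10 CDS starts were the highest count (median 3), and its 21 first donors, fzo included, ranked 2 (median 8, highest 23). Isoform number still differed among these loci. The 10 CDS starts of cnc came from 28 isoforms with the commonest stop. The locus of SNF4Agamma had 9 from 18 such isoforms, that of CG2082 8 from 8 and that of nrv2 7 from 37. Only 4 of the 10 CDS starts of cnc were held by at least 2 isoforms. The share of isoforms with the commonest stop (87.5%) ranked 20 (median 51.8%). The share of spliced isoforms whose later introns follow the longest chain (96.7%) ranked 8, against a median of 45.4%. In every locus this share also counted isoforms with only 1 intron, which have no later intron to compare. The spliced fzo isoforms were among those counted in this way. Because cnc was chosen for its first exons, these ranks place the gene and are not a test.

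The 3 loci most like cnc by number of first donors, number of CDS starts on the commonest stop and share of isoforms with that stop were matched best to SNF4Agamma, bol and nrv2. SNF4Agamma encodes a subunit of the AMP-activated kinase, bol a translation regulator of meiosis and nrv2 part of the sodium-potassium pump. Their summed distances from cnc, in standard deviations over the 190 loci, were 3.01, 4.26 and 4.32. The SNF4Agamma locus had 12 first donors and 9 CDS starts, with the commonest stop in 90.0% of 20 isoforms. The locus of nrv2 had 11 first donors and 7 CDS starts with the stop in 88.1% of 42 isoforms, and that of bol had 19 first donors and 7 CDS starts but the stop in 42.2% of 45. None of the 3 followed its longest intron chain as often as cnc, with 15.9% of spliced isoforms for bol and at most 54.8%, the value for nrv2. These loci overlap 4, 4 and 7 annotated genes in the order SNF4Agamma, nrv2 and bol, so that isoforms of neighbours can enter their counts.

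**Figure D5:**
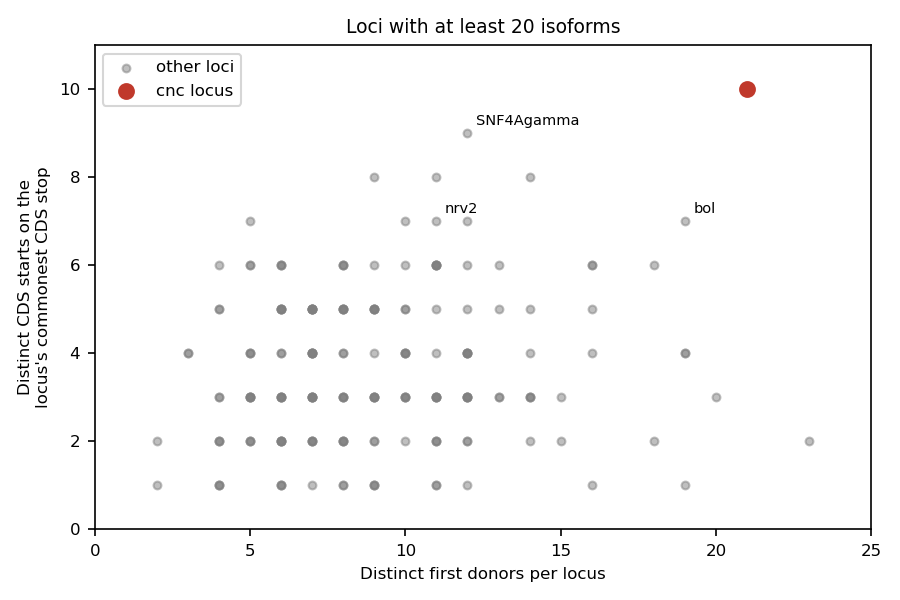
Loci of the catalogue with at least 20 isoforms, by number of distinct first donors (horizontal axis) and of distinct CDS starts on the commonest CDS stop (vertical axis); each grey point is a locus, darker where points coincide, and red marks the cnc locus. The cnc locus, at 21 donors and 10 CDS starts, stands above all other points, and the 3 most similar loci are named.

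All 4 partners and regulators of Cnc in the gene list were present. Keap1, the inhibitor, had 2 isoforms, both of which began at 17076246 on 3R. That is 3699 bp inside the annotated gene, and their CDS measured 1518 and 1416 bp. Cul3, the ubiquitin ligase scaffold that works with Keap1, had 17 isoforms from 9 first donors, and 16 of them shared a stop with 3 CDS starts (2256 to 2805 bp). For maf-S, the dimer partner, 1 isoform with a CDS of 399 bp was listed. For fs(1)h, a bromodomain gene known to restrain CncC, 6 isoforms were listed, from 6 first donors.

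Of 10 genes that serve the stress response, 8 were listed. The share of all annotated genes with a listed isoform was not determined here. Neither this count nor that of the regulators therefore sets the pathway apart from other genes. Gclc, the catalytic subunit of the enzyme that begins glutathione synthesis, had 10 isoforms that all shared 1 stop, with 3 CDS starts and CDS lengths of 522 to 2154 bp. Its partner subunit Gclm had 1 isoform, as had the glutathione transferase gene GstD1. Trxr1, the thioredoxin reductase gene, had 5 isoforms with 4 CDS starts on 1 stop (831 to 1791 bp), the most among the 12 listed genes of the pathway. The autophagy receptor gene ref(2)P had 10 isoforms, 6 of which shared a stop and 1 CDS start. The heme oxygenase gene Ho, the superoxide dismutase gene Sod1 and the catalase gene Cat had 2 isoforms each. For the cytochrome P450 genes Cyp6a2 and Cyp6a8 and for Dfd, 0 isoforms in the file used here overlapped the gene by exon. None of the listed genes came near the 10 CDS starts of cnc, although isoform numbers differed, with a median of 2 over the listed genes. The catalogue holds no levels, so these counts say nothing of how active the pathway was.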

How the data were processed

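Per the deposited file's name, the authors merged transcript models of all 4 libraries with TAMA, corrected and filtered them, filtered them again for tappAS and added CDS parts. Aligner, settings and versions: not given in the sources used here. Builds named in the submitters' processing notes are BDGP6 and dm6. The deposited values are positions, 1-based, with the CDS frame. Filtering decided which isoforms could be seen: isoform numbers in the cnc locus run to 125, of which 32 (25.6%) are listed, against 35.2% over all listed loci. The CDS were taken as deposited, and neither start codons nor protein domains were examined, since no genome or protein sequence was used here. CDS lengths may include the stop codon.

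From these positions, exons, introns, starts, ends and CDS were compared with Python 3.11.15, pandas 2.3.3 and numpy 2.4.6. The functions for first exons, 3' ends, skipped exons and CDS starts recovered the known structure in 24 of 24 simulated loci. These loci were simpler than cnc, with fewer CDS starts. Start regions, intron chains and constant introns were not checked in this way. Locus names came from the RefSeq gene span with the best overlap, by shared over joint length. An isoform counted for a gene of the pathway list when at least 50% of its span lay in the gene, on the strand with most overlapping isoforms. For Keap1 the strands tied, and the one with more isoforms inside the gene was used, as decided after the data were seen. No test was run. The members, the gene list and the rules were chosen with earlier results of these data known. Isoforms named singly were, for each first exon group and CDS version, the one with the longest CDS, with the outermost and innermost 3' ends. Others were added after their values were seen, and so were the counts of constant introns and of intron chains.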

Additional observations from a re-analysis of the deposited data

How the results depend on the processing

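Of 21 alternatives over 9 results, 15 left the count within 1.5 times its value under the main settings. First exons and 3' end groups were counted here over all 32 members. With fzo included the 3' end groups thus numbered 6, against the 4 of the cnc isoforms alone. The 22 first exons of all 32 members became 13 when starts within 50 bp were joined, 11 within 200 bp, and 8 when at least 2 isoforms were required. The 10 CDS versions became 4 with at least 2 isoforms each, since 6 versions rest on 1 isoform. The 2 alternative internal exons became 0 when 2 isoforms had to skip them and 0 when both flanking sites had to be shared. Without the fzo isoforms, a setting chosen after the data were seen, first exons numbered 19. No paired analysis was possible because the file names no sample. Structures without read numbers show neither how often an isoform was made nor in which samples.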

Other observations

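On the opposite strand, 1 isoform was listed within the cnc span, from 23213122 to 23213969 on 3R. It is unspliced, has no CDS and carries no gene name here. It lies in an intron of the isoforms from the annotated 5' end and from 4.7 kb, and its start is 1139 bp from the nearest cnc start, the one at 23211983, with both transcripts running away from each other.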
